A study of Mus musculus with 8 samples.

Results

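Matricellular proteins and small proteoglycans are secreted parts of the tissue matrix that tune how cells grip and sense it. The set described here holds 10 mouse genes chosen by name: Sparc, Thbs1, Thbs2, Tnc and Postn for matricellular proteins, Fn1 for fibronectin, and Lum, Dcn, Bgn and Fmod for small leucine-rich proteoglycans. They carried 20 of the 41174 non-control probes and were 10 of the 27574 genes on the array. The probes were found by the gene name in the scanner tables, with no use of measured values. The genes, however, were chosen with earlier results of these data known, so comparisons of the set with all genes are descriptions only. Of the 20 probes, 16 gave enough signal to be tested, and they read 9 of the 10 genes. Lum was not well above background on enough arrays and was not tested.

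Stromal cells grown from lymph nodes (strain BALB/c) were lipofected with 400 pmol of Eif4g3 siRNA or control siRNA, given fresh medium at 24 h and harvested at 48 h. Eif4g3 encodes a scaffold protein of the cap-binding translation initiation complex. For each siRNA 7 plates were transfected. RNA came from whole lysate (total RNA) or from pooled heavy polysome fractions of a sucrose gradient, which hold transcripts carrying many ribosomes, and 200 ng was labelled. Each of 8 Agilent 2-colour arrays, 4 per fraction, set Eif4g3 siRNA RNA (Cy5) against control siRNA RNA (Cy3) of the same fraction. No array had the dyes swapped, so in either fraction a probe's dye bias and a change of its transcript cannot be told apart. The labels do not say whether the 4 arrays of a fraction came from separate cultures, so p-values measure only the spread between these samples, which may be technical. In such bulk RNA, fewer cells of a type and less RNA per cell cannot be told apart.

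In stromal tissue, fibronectin forms fibrils that cells hold through integrins, and collagen fibrils are laid down beside them. Matricellular proteins such as osteonectin (Sparc), the thrombospondins, tenascin-C and periostin bind both this network and cell receptors without being its main structural parts. Small leucine-rich proteoglycans, namely decorin, biglycan, fibromodulin and lumican, coat collagen fibrils and bind growth factors, among them TGF-beta.

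Eif4g3 itself had a log2 ratio of -2.07 ± 0.29 (SD, n = 4) in total RNA and of -2.46 ± 0.50 (n = 4) on the heavy polysome arrays, and was below 0 on 8 of 8 arrays. Heavy polysome array 1 stood apart. Its median log2 ratio before normalisation was 1.48, against -1.78 to -0.13 on the other arrays, and 37.6% of its probes were well above background in Cy3, against 45.5% to 57.5% elsewhere. Across genes, heavy polysome arrays 1 and 3 and total RNA array 4 correlated least with the others of their fraction (mean r = 0.289, 0.318 and 0.327), while heavy polysome arrays 2 and 4 correlated at 0.883. The members' mean heavy polysome ratios are therefore also given without heavy polysome array 1, as are the calls of other genes in that fraction. Medians over the members, correlations and some other values are given with all arrays only. All 8 stromal markers were tested. Of 8 macrophage markers, Cd68, Csf1r, Cd14 and Fcer1g were well above background on 8 of 8 arrays, and Ptprc, Adgre1, Tyrobp and Itgam on none. Of the lymph node reticular markers, Ccl21a and Cxcl13 were not well above background on any array either.

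The first question was which transcripts of the set differed in abundance after Eif4g3 siRNA. In total RNA, Sparc alone of the 9 tested genes passed the threshold, and it was lower. Fn1, Thbs1, Dcn and Bgn had mean log2 ratios of -0.62 to -0.51 without passing, and Thbs2, Tnc, Postn and Fmod lay between -0.21 and 0.05. Over all 14473 genes tested, 4.37% passed (633 genes) and 2.7% passed as lower. The median log2 ratio was -0.51 over the 9 members and -0.04 over all genes tested. Ratios below 0 on all 4 total RNA arrays were found for Fn1, Sparc, Thbs1 and Dcn, that is 4 of 9 members, against 21.5% of all genes. In limma 4 members had an unadjusted p under 0.05 (Sparc, Fn1, Bgn and Thbs1). The share of all genes at that level is not given here, but Thbs1 ranked 2974 of 14473 genes by p.

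The second question was which of these transcripts differed among those carrying many ribosomes. In heavy polysome RNA no member passed in limma, while 8.92% of all genes did (1291 genes). At an unadjusted p under 0.05 there was 1 member, Dcn, against 25.4% of all genes. The members' median log2 ratio was -0.04, against 0.02 for all genes. Dcn was the only member below 0 on all 4 heavy polysome arrays, as were 14.7% of all genes. It was also the only one below 0 on all 8 arrays, as were 7.85% of all genes. Without heavy polysome array 1 the smallest adjusted p of a member in this fraction was 0.137, for Dcn.

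**Figure D1:**
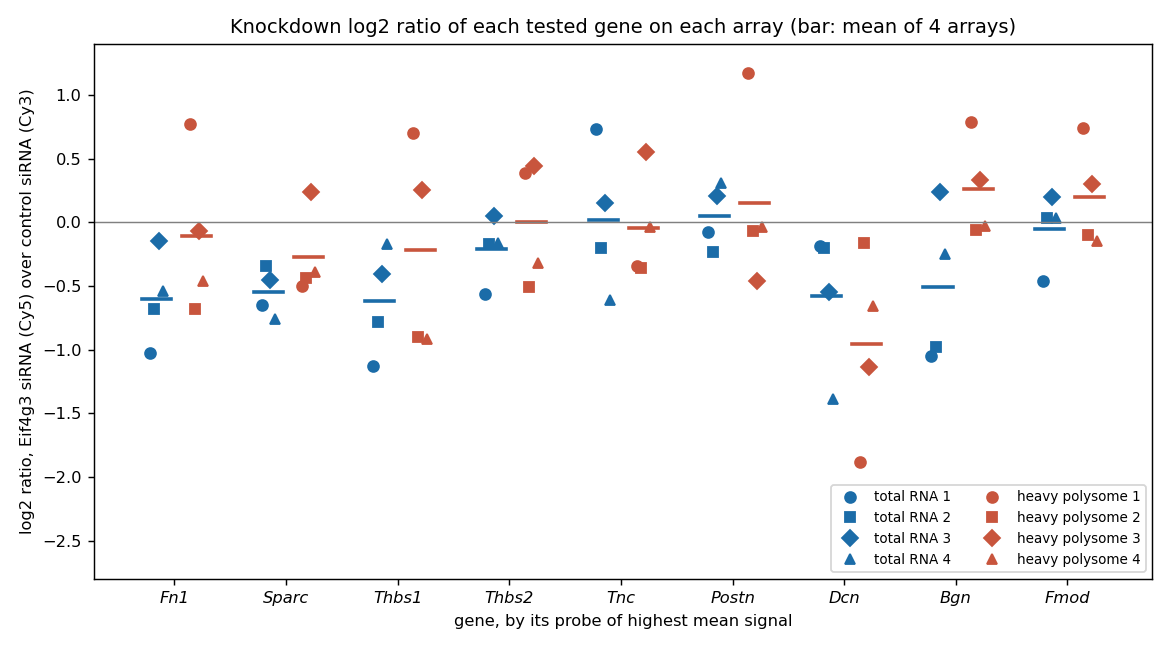
Log2 ratio of Eif4g3 siRNA over control siRNA (y axis) for the 9 tested genes (x axis) on each of 4 total RNA arrays (blue) and 4 heavy polysome arrays (red), with a bar at the mean of each fraction. Marker shape gives the array number, and heavy polysome array 1 (red circles) is the highest heavy polysome value for Fn1, Thbs1, Postn, Bgn and Fmod and the lowest for Dcn and Sparc.

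**Figure D2:**
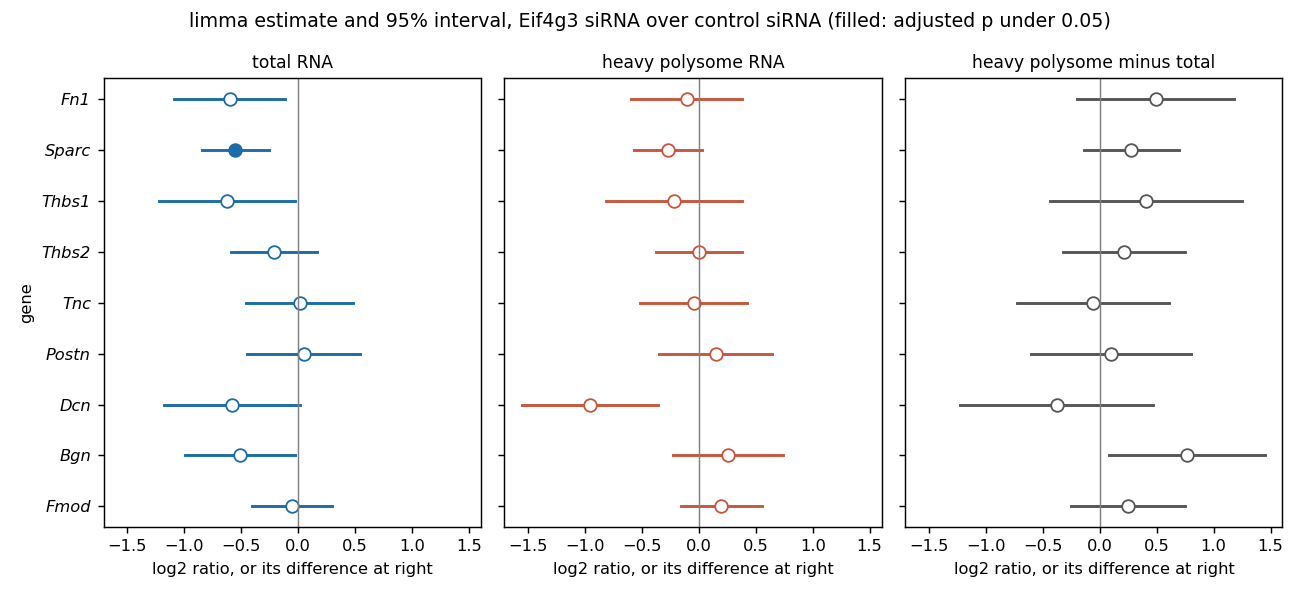
Estimate and 95% interval from limma (x axis, log2) for each gene (y axis) in total RNA, in heavy polysome RNA and for heavy polysome minus total RNA. Filled points passed an adjusted p of 0.05, which only Sparc in total RNA did (-0.55).

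Sparc encodes osteonectin, a collagen- and calcium-binding matricellular protein made by fibroblasts and bone cells. Total RNA arrays 1 to 4 gave log2 ratios of -0.65, -0.34, -0.45 and -0.76, all below 0 and within a narrow range. Heavy polysome arrays 1 to 4 gave -0.50, -0.44, 0.24 and -0.39, so array 3 went the other way. In total RNA Sparc was 1.46-fold lower (-0.55 ± 0.19, SD, n = 4; 95% interval -0.85 to -0.25; adjusted p = 0.0493). The call lay close to the threshold: leaving out any of the total RNA arrays 1 to 4 ended it, as did leaving out heavy polysome array 2 or 4, with adjusted p up to 0.152. On the heavy polysome arrays the mean was -0.27 ± 0.35 (adjusted p = 0.233), and -0.20 without array 1 (adjusted p = 0.450). Without array 3 it was -0.44 and passed (adjusted p = 0.0392).

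Sparc was read by 2 probes on mm8 chromosome 11, minus strand. Probe A_52_P101852 (55239370 to 55242027) had the higher mean signal and represents the gene. Probe A_51_P431087 (55237934 to 55237993) lies nearer the 3′ end and gave -0.07, -0.47, -0.49 and -0.40 on total RNA arrays 1 to 4, so both probes were below 0 on every total RNA array. Its mean was -0.36, with an adjusted p of 0.116 in a fit over all 21396 tested probes, added after the data had been seen, in which the first probe had 0.0509. The log2 level of Sparc in total RNA was 15.28 to 15.92 with control siRNA and 14.94 to 15.48 with Eif4g3 siRNA. On the heavy polysome arrays it was 15.95 to 16.20 and 15.45 to 16.29. In total RNA the channels overlapped through array 2, whose control level of 15.28 was the lowest.

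Because Sparc was the only member that passed, the 250 bases before its RefSeq start are shown, with those of Bgn, the member with the largest difference between fractions. Coordinates are on GRCm38.p6 and sequences are from RefSeq. Capitals mark matches on either strand to the TATA box (TATAAA), the Sp1 site (GGGCGG), the AP-1 site (TGACTCA), the SMAD element (GTCTAGAC) or the CCAAT box (CCAAT).
Sparc, chr11:55420081-55420330, minus strand: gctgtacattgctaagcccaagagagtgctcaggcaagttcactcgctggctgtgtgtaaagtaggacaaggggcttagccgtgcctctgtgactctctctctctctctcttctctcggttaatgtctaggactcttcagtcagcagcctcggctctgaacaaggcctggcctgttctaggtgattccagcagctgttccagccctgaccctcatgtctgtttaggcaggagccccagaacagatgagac
Bgn, chrX:73483351-73483600, plus strand: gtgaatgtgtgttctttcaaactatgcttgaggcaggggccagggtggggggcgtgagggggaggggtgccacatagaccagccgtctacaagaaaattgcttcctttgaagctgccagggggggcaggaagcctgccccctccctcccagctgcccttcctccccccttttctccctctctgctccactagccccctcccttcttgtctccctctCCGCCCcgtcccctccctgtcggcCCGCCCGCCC
The Sparc stretch, with 54.0% G and C, held none of these 5 motifs in these letters. The Bgn stretch, with 64.4% G and C, held GGGCGG on the opposite strand at 3 places, the nearest 2 overlapping within 10 bases of the start. Over 32851 RefSeq promoters of this length, 32.7% held GGGCGG, 12.4% TATAAA, 4.46% TGACTCA, 0.167% GTCTAGAC and 33.8% CCAAT. Of the members, 6 had an entry in this table, namely Sparc, Thbs2, Tnc, Postn, Bgn and Fmod. TATAAA was found upstream of Postn at its second start, of Tnc and, on the opposite strand, of Thbs2. No promoter measurement belongs to these arrays, and a match is a description of letters only.

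Fn1 encodes fibronectin, the adhesive glycoprotein that cells assemble into fibrils. In total RNA its log2 ratios on arrays 1 to 4 were -1.03, -0.68, -0.15 and -0.54, with array 3 nearest to 0. On heavy polysome arrays 1 to 4 they were 0.77, -0.68, -0.07 and -0.46, so array 1 alone was above 0. The mean in total RNA was -0.60 ± 0.37 (95% interval -1.09 to -0.11; adjusted p = 0.143). Without heavy polysome array 1, whose spread enters the shared error estimate, the same mean had an adjusted p of 0.0402. The heavy polysome mean was -0.11 ± 0.64 (adjusted p = 0.798), and -0.40 without array 1 (adjusted p = 0.182).

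The probe that represents Fn1, A_51_P100856 (mm8 chromosome 1, 71524056 to 71526293, minus strand), was printed 10 times on each array. The SD of the log2 ratio over those repeat spots was 0.04 to 0.19 on 6 arrays, but 0.53 on total RNA array 4 and 0.34 on heavy polysome array 3. Within total RNA array 4 the spots ran from -1.26 to 0.06, so the repeat spots of 1 array covered a wider range than the means of the 4 arrays did.

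Thbs1 encodes thrombospondin-1, which binds CD36 and CD47 and activates latent TGF-beta. The total RNA ratios were -1.13, -0.78, -0.41 and -0.17 on arrays 1 to 4, all below 0 but over a wide range. The heavy polysome ratios were 0.70, -0.90, 0.25 and -0.92 on arrays 1 to 4, with arrays 1 and 3 above 0 and arrays 2 and 4 far below it. The mean was -0.62 ± 0.42 in total RNA (95% interval -1.22 to -0.02; adjusted p = 0.209) and -0.22 ± 0.82 in heavy polysome RNA (adjusted p = 0.657). Without heavy polysome array 1 the latter was -0.52 (adjusted p = 0.220). Its probe, A_52_P363951, lies at mm8 chromosome 2, 117817480 to 117817539, plus strand.

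The other probes of Fn1 and Thbs1 lie upstream of those that represent the genes, and on heavy polysome array 1 the 2 most upstream probes of each gene gave the opposite sign. For Thbs1, the probe nearest the 3′ end gave 0.70 there, while A_52_P337086 (117814035 to 117814094) gave -0.99 and A_52_P337092 (117812417 to 117812597) gave -0.83. For Fn1, the 2 probes nearest the 3′ end gave 0.77 and 0.63, while A_52_P237357 (71537324 to 71537383) gave -0.29 and A_52_P299974 (71560522 to 71561280) gave -0.40. The array of the exception is the one that stood apart in its raw signals. Its Cy3 mean signal was 1094 at the 3′ probe of Thbs1, against 457 and 243 at the upstream probes. For Fn1 it was 867 and 207 at the 2 probes nearest the 3′ end, against 59 and 103 at the others. Position along the gene and signal strength cannot be told apart here. On the other 7 arrays the 3′ probe of Thbs1 was lower than its most upstream probe, by 0.34 to 0.69, and that of Fn1 by 0.11 to 0.79.

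Among 5041 genes with 2 or more tested probes on 1 strand, the difference between the most 3′ and the most 5′ probe on heavy polysome array 1 had a median of 0.05. The Thbs1 difference (1.53) lay at the 97.8th percentile of these genes and the Fn1 difference (1.17) at the 95.1st. On total RNA array 2, in contrast, the Thbs1 difference (-0.58) lay at the 5.6th percentile and the Fn1 difference (-0.76) at the 2.1st. In the total RNA fit, the most upstream probes averaged -0.16 for Thbs1 and 0.02 for Fn1, less negative than the -0.62 and -0.60 of the 3′ probes. A_52_P237357 carried the name Fn1 on 1 array only.

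**Figure D3:**
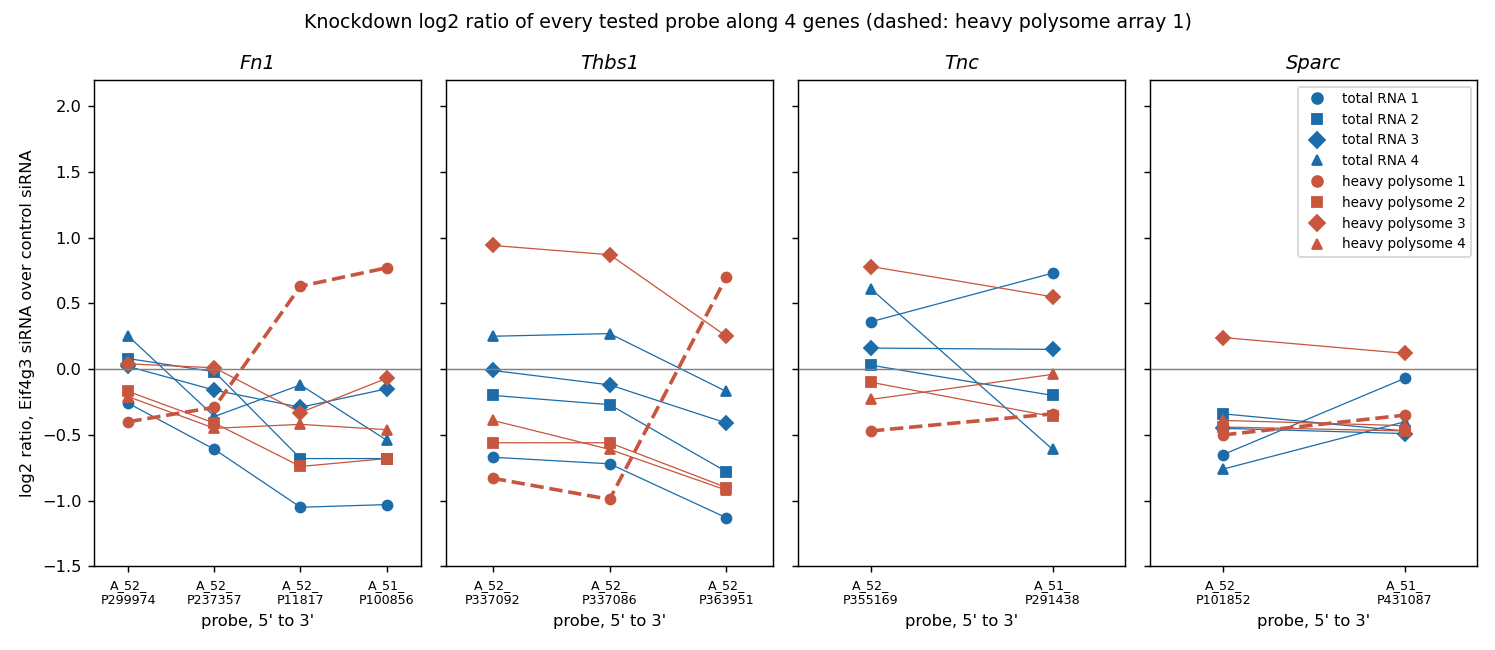
Log2 ratio of Eif4g3 siRNA over control siRNA (y axis) at every tested probe, ordered from 5′ to 3′ (x axis), for Fn1, Thbs1, Tnc and Sparc on each array. Lines join the probes of 1 array, and the dashed line, heavy polysome array 1, rises to 0.70 at the 3′ probe of Thbs1 where 6 of the other 7 arrays are below 0.

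Thbs2 encodes thrombospondin-2, a relative of thrombospondin-1 that limits vessel growth and lacks the TGF-beta-activating motif. Arrays 1 to 4 gave log2 ratios of -0.56, -0.17, 0.05 and -0.16 in total RNA, while the heavy polysome arrays gave 0.39, -0.51, 0.44 and -0.32. Both fractions crossed 0, and heavy polysome arrays 2 and 4 were low while arrays 1 and 3 were high. The means were -0.21 ± 0.25 (adjusted p = 0.517) and 0.00 ± 0.49 (adjusted p = 0.997; -0.13 without array 1, adjusted p = 0.707). Its probe, A_51_P461877, lies at mm8 chromosome 17, 14404116 to 14405379, minus strand.

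Tnc encodes tenascin-C, a multi-armed glycoprotein that loosens adhesion to fibronectin. The log2 ratios on arrays 1 to 4 were 0.73, -0.20, 0.15 and -0.61 in total RNA, against -0.34, -0.36, 0.55 and -0.04 on the heavy polysome arrays. No fraction kept 1 sign, and the means were 0.02 ± 0.56 (adjusted p = 0.979) and -0.04 ± 0.43 (adjusted p = 0.920; 0.05 without array 1, adjusted p = 0.917). The 95% interval in total RNA was -0.46 to 0.49. Its 2 tested probes on mm8 chromosome 4, minus strand, parted on total RNA array 4, where A_51_P291438 (63446699 to 63446759) gave -0.61 and A_52_P355169 (63499575 to 63500338) gave 0.61. Another probe, A_51_P324992, was not well above background on any array.

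Postn encodes periostin, which binds collagen, tenascin-C and integrins. In total RNA the log2 ratios were -0.08, -0.23, 0.21 and 0.31 on arrays 1 to 4, on both sides of 0. In the heavy fraction they were 1.17, -0.07, -0.46 and -0.04, with array 1 far above the rest. The means were 0.05 ± 0.25 (adjusted p = 0.924) and 0.15 ± 0.71 (adjusted p = 0.718; -0.19 without array 1, adjusted p = 0.422). Its probe, A_51_P489192, lies at mm8 chromosome 3, 54478490 to 54478549, plus strand.

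Dcn encodes decorin, which binds collagen fibrils, TGF-beta and the receptors EGFR and MET. It was below 0 on every array: in total RNA its log2 ratios on arrays 1 to 4 were -0.19, -0.20, -0.55 and -1.39, and in heavy polysome RNA they were -1.88, -0.16, -1.14 and -0.66. The size differed widely, with heavy polysome array 2 and total RNA arrays 1 and 2 near 0. The heavy polysome mean was -0.96 ± 0.73, or 1.94-fold lower (95% interval -1.56 to -0.36), and the adjusted p of 0.0552 missed the threshold. It was -0.65 without array 1 (adjusted p = 0.137), and Dcn passed in this fraction in 7 of 20 alternative settings. Among these were the fits without heavy polysome array 2 (-1.22, adjusted p = 0.0468) and without total RNA array 4 (-0.96, adjusted p = 0.0333). In total RNA the mean was -0.58 ± 0.56 (95% interval -1.18 to 0.02; adjusted p = 0.240).

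Over all 8 arrays, the level of Dcn with control siRNA also varied more than that of nearly any other gene. With control siRNA its log2 level on arrays 1 to 4 was 8.91, 10.13, 7.70 and 8.75 in total RNA, against 11.72, 9.61, 8.13 and 8.37 on the heavy polysome arrays. This range of 4.02, or 16.2-fold, was as wide as or wider than that of 99.7% of the tested genes, whose median range was 0.99. With channel medians in place of Aquantile scaling it was 15.2-fold, and with quantile scaling of all 16 channels 17.4-fold. The level was lowest on total RNA array 3 and highest on heavy polysome array 1 under all 3 scalings. Without heavy polysome array 1, which stood apart in its raw signals, the Aquantile levels ran from 7.70 to 10.13. That is the range within total RNA alone (2.43), and its place among all genes is not given here. The Eif4g3 siRNA channel followed a like course, from 9.94 on total RNA array 2 to 7.00 on heavy polysome array 3. Its probe, A_51_P334104, lies at mm8 chromosome 10, 96947287 to 96947346, plus strand, and the second Dcn probe, A_52_P252726, was not well above background on any array.

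Bgn encodes biglycan, the closest relative of decorin, which also signals through TLR2 and TLR4. Total RNA arrays 1 to 4 gave log2 ratios of -1.05, -0.98, 0.24 and -0.25, with arrays 1 and 2 low and array 3 above 0. The heavy polysome arrays gave 0.79, -0.06, 0.33 and -0.03, with array 1 the highest. The means were -0.51 ± 0.62 (95% interval -0.99 to -0.02; adjusted p = 0.205) and 0.26 ± 0.39 (adjusted p = 0.501; 0.08 without array 1, adjusted p = 0.862). Its log2 level with control siRNA was 10.32 to 12.45 over the total RNA arrays, a wider range than the 11.53 to 12.35 over the heavy polysome arrays. Its probe, A_52_P162486, lies at mm8 chromosome X, 69745935 to 69745994, plus strand. A second probe, A_52_P19711, was above background in Cy3 on 1 array of each fraction.

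Fmod encodes fibromodulin, which binds collagen fibrils in tendon and cartilage. On arrays 1 to 4 its log2 ratios were -0.46, 0.03, 0.20 and 0.03 in total RNA, against 0.74, -0.10, 0.30 and -0.15 among heavy polysome transcripts. The means were -0.05 ± 0.29 (adjusted p = 0.891) and 0.20 ± 0.41 (adjusted p = 0.478; 0.02 without array 1, adjusted p = 0.957). Its probe, A_51_P207622, lies at mm8 chromosome 1, 135863832 to 135863891, plus strand. Lum encodes lumican, a collagen-fibril proteoglycan prominent in the cornea. Its probe, A_51_P167527 (mm8 chromosome 10, 97002264 to 97002323), was well above background in Cy3 on 1 of 4 arrays of each fraction, and in Cy5 on 2 total RNA arrays and 1 heavy polysome array, so no ratio is given.

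**Figure D4:**
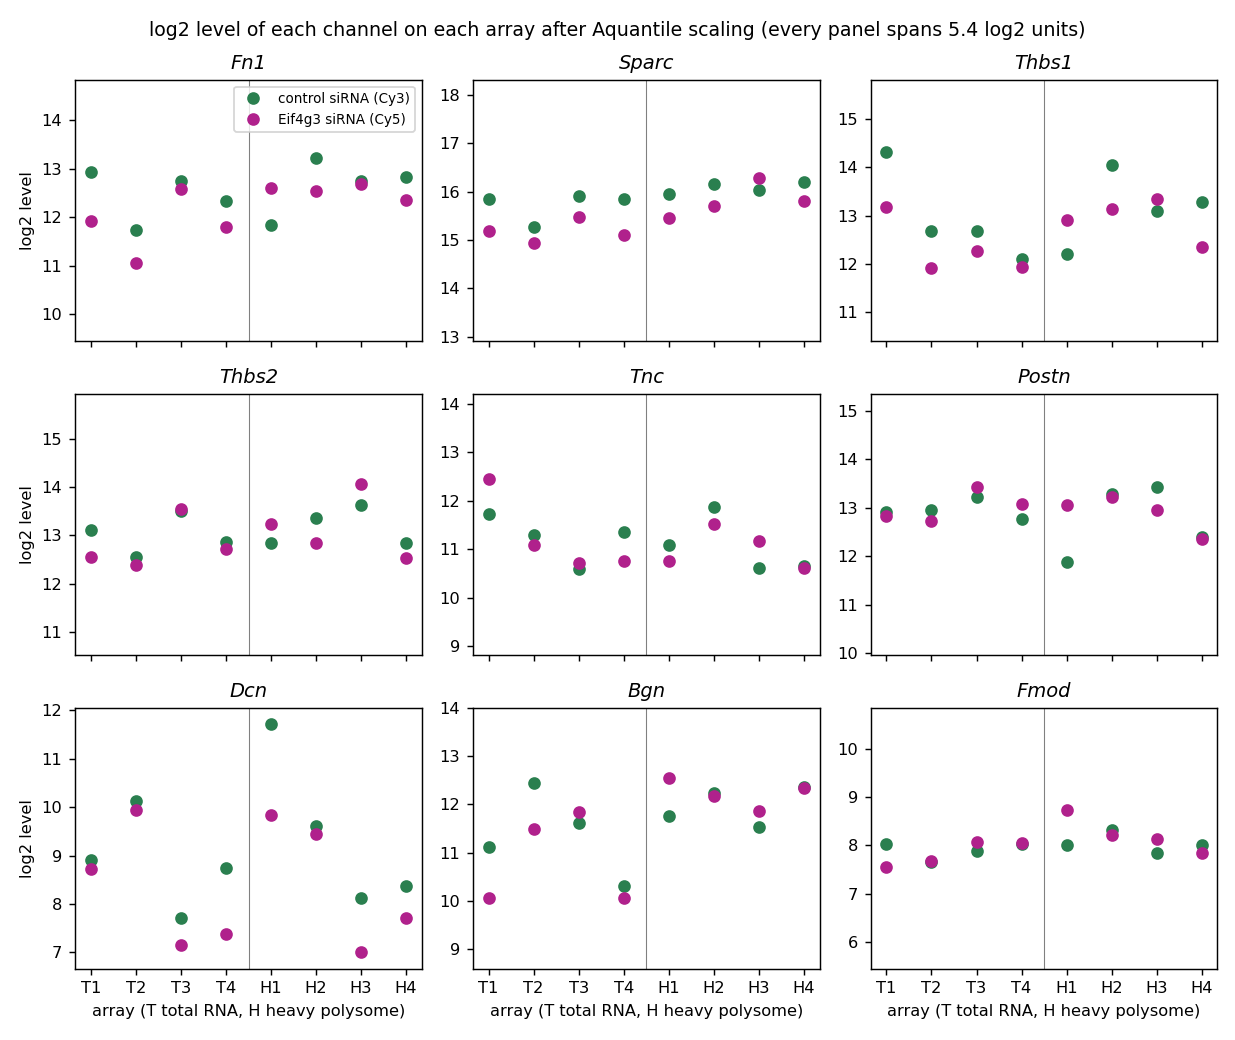
Log2 level (y axis) of 9 genes in control siRNA cells (Cy3, green) and Eif4g3 siRNA cells (Cy5, magenta) on total RNA arrays T1 to T4 and heavy polysome arrays H1 to H4 (x axis), after loess and Aquantile scaling. Dcn in the control channel spans 7.70 to 11.72, whereas Fmod spans 7.65 to 8.32, and levels are to be compared within a panel only.

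The next question was whether the knockdown ratio differed between heavy polysome and total RNA, that is, whether ribosome loading changed apart from abundance. No member passed, and no gene of the 14473 did (limma, 0%), with 755 genes (5.22%) at an unadjusted p under 0.05. Of the members, 7 of 9 had a positive difference, and the median was 0.25, against 0.06 for all genes. Bgn had the largest difference, 0.77 (95% interval 0.08 to 1.45; adjusted p = 0.847), and was the only member with an unadjusted p under 0.05 (0.0320). Its 4 heavy polysome ratios, -0.06 to 0.79, and its 4 total RNA ratios, -1.05 to 0.24, overlapped. Without heavy polysome array 1 the difference was 0.59. Fn1 followed with 0.49 (95% interval -0.20 to 1.18; 0.20 without array 1) and Thbs1 with 0.40 (-0.44 to 1.25; 0.10 without array 1). Dcn had the lowest, -0.38 (-1.23 to 0.47; -0.07 without array 1). The difference for Sparc was 0.28 (-0.14 to 0.70; 0.35 without array 1), so its knockdown ratio was not shown to differ between the fractions. All these values are of the probe that represents each gene. In the fit over all tested probes, the other Fn1 probes had 0.32 (A_52_P11817), 0.00 (A_52_P237357) and -0.21 (A_52_P299974). Those of Thbs1 had -0.11 (A_52_P337086) and -0.05 (A_52_P337092). The other Sparc probe had 0.08 (A_51_P431087) and the other tested Tnc probe -0.29 (A_52_P355169).

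The last comparison set heavy polysome RNA against total RNA within each siRNA. Equal RNA mass was labelled and each slide held arrays of 1 fraction only, so slide and fraction cannot be told apart. In control siRNA cells no member passed in limma, while 2.19% of genes did (317 genes, 315 of them lower in heavy polysome RNA), and 0 members had an unadjusted p under 0.05, against 12.5% of genes. In Eif4g3 siRNA cells no member passed either, while 0.152% of genes did (22 genes, all lower), and 3 members had an unadjusted p under 0.05 (Bgn, Sparc and Fn1), against 12.5% of genes. The members' medians were 0.21 and 0.39, against -0.02 and 0.02 for all genes. By the probes that represent the genes, Tnc and Postn were the 2 members below 0 in both. Bgn had the highest value in both, 0.60 in control siRNA cells (95% interval -0.32 to 1.51; adjusted p = 0.637) and 1.36 in Eif4g3 siRNA cells (0.44 to 2.29; adjusted p = 0.239).

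For Bgn in Eif4g3 siRNA cells, the log2 levels on arrays 1 to 4 were 10.06, 11.48, 11.84 and 10.07 for total RNA, against 12.54, 12.17, 11.86 and 12.33 for heavy polysome RNA. All 4 heavy polysome levels were above all 4 total RNA levels, by as little as 0.02 between the nearest arrays. The share of all genes whose levels separate in this way is not given here. Without heavy polysome array 1 the value was 1.26 (adjusted p = 0.484). Fn1 had 0.71 in Eif4g3 siRNA cells (95% interval 0.06 to 1.36; adjusted p = 0.370) and Sparc 0.64 (0.14 to 1.13; adjusted p = 0.293). Their values in control siRNA cells were 0.22 and 0.36. These values are of the probes that represent the genes, and other probes differed. In the fit over all tested probes, Sparc A_51_P431087 had -0.33 with Eif4g3 siRNA. The Fn1 probes A_52_P11817, A_52_P237357 and A_52_P299974 had 0.40, -0.77 and -0.45. With control siRNA these probes had, in the same order, -0.41, 0.08, -0.77 and -0.23. The Thbs1 probes A_52_P337086 and A_52_P337092 had -0.23 and -0.21 with Eif4g3 siRNA and -0.12 and -0.15 with control siRNA. The probe that represents Thbs1 had 0.62 and 0.21. The Tnc probe A_52_P355169 had -0.53 with Eif4g3 siRNA and -0.24 with control siRNA. With heavy polysome array 1 left out Fn1 had 0.69 with Eif4g3 siRNA and 0.49 with control siRNA, Sparc 0.76 and 0.40, and Bgn 0.67 with control siRNA. The interval for Dcn was wide in both, -1.15 to 2.32 and -1.49 to 1.90, and without that array its values were -0.17 and -0.24.

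**Figure D5:**
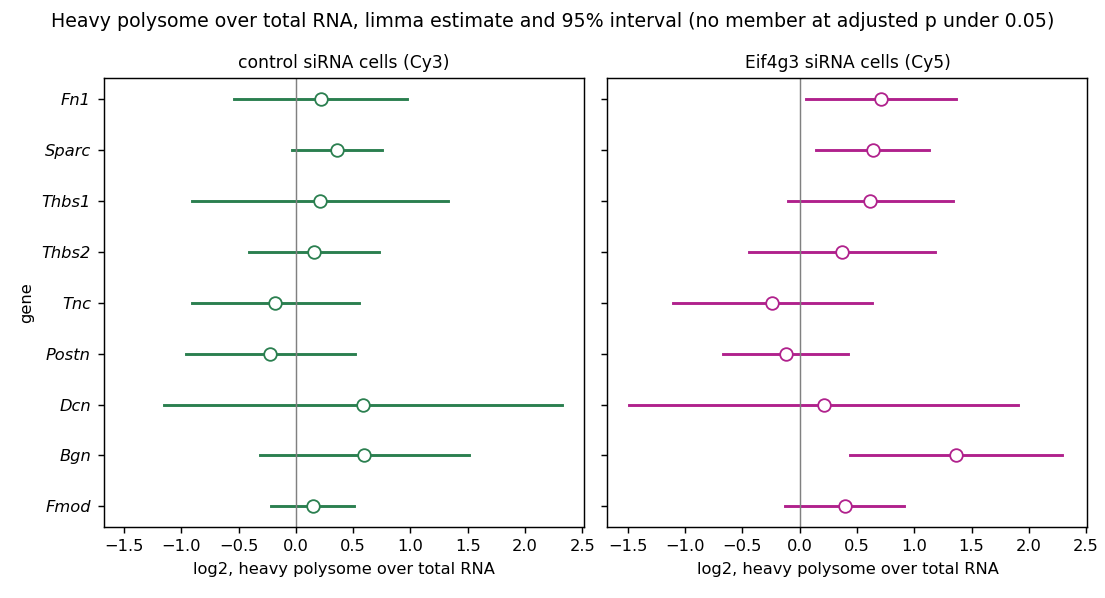
Estimate and 95% interval from limma (x axis, log2) of heavy polysome over total RNA for 9 genes (y axis) in control siRNA cells and in Eif4g3 siRNA cells. Each gene is read by its probe of highest mean signal. Intervals exclude 0 for Bgn, Fn1 and Sparc in Eif4g3 siRNA cells and for no gene in control siRNA cells, and no adjusted p was under 0.05.

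The members' ratios did not vary independently over the 8 arrays. After the mean of each fraction was subtracted, Fn1 and Fmod correlated at r = 0.96, Thbs1 and Fmod at 0.92, and Thbs1 and Thbs2 at 0.91 (n = 8 arrays). Dcn ran against this group, with r = -0.90 to Thbs1, -0.79 to Fn1, -0.75 to Fmod and -0.70 to Bgn. Tnc and Sparc stood apart from both, with r = 0.54 between them and -0.31 to 0.49 for either with Thbs1, Thbs2, Fn1, Bgn or Fmod. Postn correlated at 0.74 with Fn1, but at -0.65 with Sparc and -0.49 with Tnc. These points share arrays and loess curves, and heavy polysome array 1 is the extreme one for most members, so the values are a description only. Among 12808 genes named through RefSeq, those most like Sparc were Smdt1 (r = 0.994), Frat1 (0.980) and Sra1 (0.977). Those most like Dcn were Trim54 (0.990), Igtp (0.989) and Mzt2 (0.989), and those most like Thbs1 were Tmem19 (0.999), Prickle2 (0.996) and Lancl1 (0.990).

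Relatives, receptors and chain-building enzymes of these proteins were taken from 4 lists. Of 21 matricellular relatives, 15 were tested. In total RNA 2 passed as lower and in heavy polysome RNA 3 passed as lower and 1 as higher, with list medians of -0.06 and 0.01. Spp1, the gene of osteopontin, was lower in both, at -1.35 ± 0.55 (adjusted p = 0.0340) and -1.48 ± 0.83 (adjusted p = 0.0150). Arrays 1 to 4 gave -0.78, -1.19, -2.10 and -1.32, and then -0.78, -1.10, -2.66 and -1.37, so every array was well below 0. Tnxb, the gene of tenascin-X, was also lower in both, at -0.97 ± 0.32 (adjusted p = 0.00771) and -0.69 ± 0.15 (adjusted p = 0.0109). Sparcl1, the closest relative of Sparc, fell in heavy polysome RNA (-0.51 ± 0.12, adjusted p = 0.0195; -0.26 ± 0.25 in total RNA, adjusted p = 0.196). Smoc1, a SPARC-related calcium-binding protein gene, rose there (0.45 ± 0.26, adjusted p = 0.0335; 0.05 ± 0.14 in total RNA, adjusted p = 0.836). When heavy polysome array 1 was left out, the calls of Spp1 (-1.71), Tnxb (-0.77) and Sparcl1 (-0.57) were kept in that fraction and that of Smoc1 was lost (0.43, adjusted p = 0.0708).

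Of 20 proteoglycan relatives, 10 were tested and 0 passed in either fraction in limma (medians -0.05 and -0.14). In each fraction 1 had an unadjusted p under 0.05, as had 25.4% of all genes in heavy polysome RNA. The share of all genes in total RNA is not given here. Of 23 receptors and binding partners, 21 were tested. In total RNA 2 passed as lower, and in heavy polysome RNA 3 passed as lower and 1 as higher (medians -0.16 and -0.08). Itga9, the integrin subunit that binds tenascin-C and osteopontin, fell in both (-0.79 ± 0.05, adjusted p = 0.00776, and -0.80 ± 0.25, adjusted p = 0.00368). Itgb3, a subunit of the integrin that binds fibronectin and osteopontin, fell in total RNA (-0.56 ± 0.09, adjusted p = 0.0254). Among heavy polysome transcripts the proteoglycan co-receptor Sdc2 (-0.44 ± 0.33) and the biglycan receptor Tlr2 (-0.50 ± 0.29) fell and Sdc3 rose (0.44 ± 0.12), with adjusted p of 0.0480, 0.0293 and 0.0352. These 3 calls were lost without heavy polysome array 1 (-0.34, -0.36 and 0.39, adjusted p = 0.123, 0.0605 and 0.0832), whereas that of Itga9 was kept (-0.81) and Itgb3 passed (-0.51, adjusted p = 0.0155).

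Of 25 genes of glycosaminoglycan chain synthesis, 22 were tested. In total RNA 1 passed as higher and 1 as lower, and in heavy polysome RNA 2 passed as higher (medians -0.12 and 0.04). Chst1, a keratan sulfate sulfotransferase gene, rose in both (0.59 ± 0.06, adjusted p = 0.0361, and 0.73 ± 0.37, adjusted p = 0.00936). B3gat3, whose enzyme adds the last sugar of the linker on which these chains are built, fell in total RNA (-0.47 ± 0.21, adjusted p = 0.0346). Dsel, a dermatan sulfate epimerase gene, rose in heavy polysome RNA (0.56 ± 0.31, adjusted p = 0.0238). When heavy polysome array 1 was left out, the call of Chst1 was kept (0.66), that of Dsel was lost (0.44, adjusted p = 0.0570) and B4galt7, the gene of a linker galactosyltransferase, passed as lower (-0.52, adjusted p = 0.0327). In the difference between fractions none of the genes of the 4 lists passed (limma; 0 of all genes did).

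The calls of these lists and of the marker lists that follow were tried with each array left out in turn, an alternative added after the data had been seen. Of the 10 calls in total RNA 0 held in all 8 fits, and of the 16 in heavy polysome RNA 1 did, that of Itga9. In total RNA, Tnxb and Itga9 were lost only without array 3 (adjusted p = 0.0534 and 0.0501), and Krt19 without array 1, 2 or 3. The other 7 calls in total RNA were lost when any 1 of the 4 arrays of that fraction was left out, with adjusted p up to 0.157. Leaving out heavy polysome array 4 also ended all 7, and leaving out heavy polysome array 2 ended all but that of Itgb3. In heavy polysome RNA, Spp1, Tnxb, Chst1 and Pdgfra were lost only without array 4, with adjusted p of 0.0591 to 0.0634, and Sparcl1 and Krt19 without array 2 or 4. Sdc2 was called in 0 of the 8 fits, Col1a2 in 1, Pdgfrb in 2, Smoc1, Sdc3 and Cnn1 in 3, Tlr2 in 4, and Dsel and Col1a1 in 5.

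Markers of the cell types that such cultures could hold moved in part alongside these values. All 8 stromal markers had a mean below 0 in total RNA (median -0.34), where Col1a2 passed, as did 4.37% of all genes. In heavy polysome RNA 4 passed as lower (Pdgfra, Pdgfrb, Col1a1 and Col1a2; list median -0.48), while 8.92% of all genes passed in either direction. With heavy polysome array 1 left out Pdgfra passed there, as did Vcam1 (-0.72, adjusted p = 0.0179), and the other 3 did not. Levels of the 8 were also summed on the linear scale, so that the brightest markers weigh most. The log2 of that sum was 16.89 to 17.19 in control siRNA and 16.30 to 16.98 in Eif4g3 siRNA total RNA. In heavy polysome RNA it was 16.78 to 17.26 against 16.42 to 16.95. Of the 4 macrophage markers tested, Csf1r passed as lower in total RNA (-0.57, adjusted p = 0.0447). In heavy polysome RNA 0 passed in limma and 3 had an unadjusted p under 0.05, as had 25.4% of all genes. Cd68 was there at -0.50, Cd14 at -0.44, Csf1r at -0.35 and Fcer1g at 0.14. The log2 of their summed linear level was 9.86 to 10.24 in control siRNA and 9.39 to 10.07 in Eif4g3 siRNA total RNA, which overlapped. In heavy polysome RNA it was 10.07 to 10.26 against 9.34 to 9.98, which did not. The share of all genes whose channels separate in this way is not given here. Of 5 epithelial markers 3 were tested, with a median of 0.14 in total RNA and of 0.25 on the heavy polysome arrays. Krt19 passed as lower in both (-0.80 and -0.69; -0.60 in the latter without array 1, adjusted p = 0.0447), while Krt8 (0.14 and 0.25) and Krt18 (0.44 and 0.35) did not pass. The log2 of the summed linear level of these 3, control against Eif4g3 siRNA, was 10.40 to 11.61 against 9.68 to 11.11 in total RNA. In heavy polysome RNA it was 11.22 to 11.60 against 10.41 to 11.23, and the ranges overlapped in both. All 5 smooth muscle markers were tested, with medians of 0.08 and 0.27. Cnn1 passed as higher in both (0.43 and 0.39; 0.31 in heavy polysome RNA without array 1, adjusted p = 0.0881), while Des had -0.33 and -0.37 and passed as lower in heavy polysome RNA without array 1 (-0.52, adjusted p = 0.0207). The log2 of the summed linear level of these 5, control against Eif4g3 siRNA, was 16.95 to 17.50 against 16.87 to 17.61 in total RNA. In heavy polysome RNA it was 17.07 to 17.46 against 17.36 to 17.74, and the ranges overlapped in both. Of 5 lymph node reticular, 7 endothelial and 6 lymphocyte markers, 3, 1 and 2 were tested. In the knockdown comparison of either fraction 0 of these 6 passed in limma and 0 had an unadjusted p under 0.05. In each polysome enrichment comparison 1 reticular marker had an unadjusted p under 0.05, as had 12.5% of all genes. The part of these shifts in the members' values was not tested.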

How the data were processed

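The members and the gene lists were chosen with earlier results of these data known. Per the file headers, the deposited scanner tables hold spot and background signals of both channels as intensity, made with Agilent Feature Extraction 10.7.3.1 (GE2_107_Sep09), or 10.5.1.1 (GE2_105_Dec08) for total RNA array 2, whose gene names also differ for 1989 spots. The tool is also named by the submitters' processing notes. The authors' deposited matrix gives the Cy5 to Cy3 ratio as log2, and the deposited scanner tables give it also as log10. Coordinates are on mm8, per the file headers; exon and UTR annotation was not used here.

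Mean signals were corrected for local background with normexp (offset 50) and normalised within arrays by loess (span 0.3). Control spots and 131 to 241 marked spots per array were left out, and no spot was saturated. Scanner gene names were updated through RefSeq for 80.2% of probes, and each gene was read by its probe of highest mean signal. Tested genes needed that probe well above background (either channel, 3 or more of the 4 arrays of a fraction) and 3 or more values per fraction. Named relatives passed the threshold in at least 1 knockdown comparison, with at most 6 per list by size. The 3 genes most like a member were given for 3 members.

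Ratios were fitted in limma 3.58.1 (R 4.3.3, version 1.17.8 of data.table) with 1 coefficient per fraction over 8 arrays, tested two-sided with Benjamini-Hochberg adjustment over 14473 genes and a threshold of 0.05. Heavy polysome over total RNA was fitted per channel after Aquantile scaling. The fits were tested on simulated data with independent noise between arrays. Those data held no dye bias, shared RNA or outlying array, so the effect of these was not tested. In all, 21 alternatives were planned and 2 added, and the fits with an array left out were later extended to the listed genes. Equal RNA mass was labelled, so values are relative to the other transcripts of a sample. The number of arrays limits the precision. Figures used matplotlib 3.10.9 under Python 3.11.15.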

Additional observations from a re-analysis of the deposited data

Results flagged for a closer look

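In groups of 4 arrays, 54 sets of values were checked for an array that lies far from the others, and 2 stood out. Chance picks about 1 in 20 such groups, so 2 of 54 is no more than chance gives. The log2 ratio of Sparc in heavy polysome RNA was 0.24 on array 3, while the other 3 arrays lay between -0.50 and -0.39. Without that array the heavy polysome mean of Sparc was -0.44, with an adjusted p of 0.0392, in place of -0.27 and 0.233. The control siRNA level of Sparc in total RNA was 15.28 on array 2, while the other 3 arrays lay between 15.84 and 15.92. Array 2 is the total RNA array with another Feature Extraction version, scan day and slide, and the part of these in its level was not tested.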

How the results depend on the processing

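Over 810 member values under alternatives, 717 kept direction and side of the threshold, 18 gained a call, 10 lost one (all Sparc in total RNA), and 65 changed sign, 64 of them uncalled before and after. The cause of a change was not tested. Sparc in total RNA passed in 10 of 20 alternatives (adjusted p from 0.00593 to 0.152) and was below 0 in all 20. Members and genes called were as follows. In total RNA they were 1 and 1563 with the processed signals, 1 and 1451 with the series matrix, 0 and 209 with median centring, 0 and 449 with no filter on dim probes, 3 and 2587 with array weights (Fn1, Sparc, Thbs1), 1 and 1473 with slide as a random block, and 0 and 296 with heavy polysome arrays 2 and 4 as 1 replicate. In heavy polysome RNA they were 1 and 2062, 1 and 2045 (both Dcn), 0 and 196, 0 and 1135, 5 and 7354 (Fn1, Dcn, Thbs2, Sparc, Thbs1), 1 and 2591 (Dcn), and 0 and 429 under the same settings. There 1 member passed with the stricter two-channel filter (Dcn) and 382 genes on the arrays of that fraction alone. Without the 3 arrays of lowest correlation, chosen after seeing the data, 3 members and 3161 genes passed in total RNA (Fn1, Sparc, Thbs1) and 2 and 2372 in heavy polysome RNA (Sparc, Thbs1). With 1 array left out, 0 to 2 members and 46 to 1323 genes passed in total RNA, 0 to 1 and 337 to 1537 in heavy polysome RNA, 67 to 347 genes for polysome enrichment in control siRNA cells and 2 to 81 in Eif4g3 siRNA cells. With array weights 5 genes, none a member, passed for the difference between fractions. Enrichment calls were 159 (control) and 106 (Eif4g3 siRNA) with channel medians, 38 with quantile scaling, 49 with the stricter filter, 41 with probe means and 69 with slide as a block in Eif4g3 siRNA cells.

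Ratios of same-numbered arrays, as deviations from the mean of their fraction, correlated at -0.02, 0.17, -0.11 and -0.30. Their levels correlated at -0.31, 0.07, 0.44 and 0.11 in Cy3 and at 0.03, 0.23, 0.24 and 0 in Cy5. With so few arrays, whether the numbers pair them cannot be told from these values. The replicate block gave 0 calls for the difference, 61 and 10 for enrichment in control and Eif4g3 siRNA cells, and 0 members in each.

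Sign changes in total RNA were Tnc -0.19, Postn -0.13 and Fmod 0.01 with median centring, Fmod 0.02 with array weights and Postn -0.03 without the 3 arrays. In heavy polysome RNA, Thbs2 was -0.18 and Tnc 0.05 with the processed signals or the series matrix. With array weights Thbs2 was -0.34 (called, adjusted p = 0.00529), Postn -0.03, Bgn -0.01 and Fmod -0.10. With arrays 2 and 4 as 1 replicate Thbs1 was 0.01, Tnc 0.01 and Fn1 0.04. Without the 3 arrays Thbs2 was -0.41, Postn -0.05, Bgn -0.04 and Fmod -0.13. For the difference, Thbs2 was -0.01 with the processed signals or the series matrix, Tnc 0.14 with median centring, Thbs1 -0.21, Thbs2 -0.20, Postn -0.04 and Fmod -0.12 with array weights, and Thbs1 -0.13, Thbs2 -0.19, Postn -0.02 and Fmod -0.05 without the 3 arrays. For enrichment in control siRNA cells, Sparc and Thbs1 were -0.02 with probe means, and Sparc was -0.11 and Thbs2 -0.01 with channel medians. With 1 array left out, the ranges that crossed 0 in total RNA were Tnc -0.22 to 0.22, Postn -0.03 to 0.15 and Fmod -0.14 to 0.09. In heavy polysome RNA they were Thbs1 -0.52 to 0.02, Thbs2 -0.15 to 0.17, Tnc -0.24 to 0.06, Postn -0.19 to 0.35 and Fn1 -0.40 to 0.08. For the difference they were Tnc -0.27 to 0.18 and Postn -0.24 to 0.30. For enrichment in control siRNA cells they were Fn1 -0.02 to 0.49, Thbs1 -0.08 to 0.67, Postn -0.45 to 0.07 and Dcn -0.17 to 1.03, and in Eif4g3 siRNA cells Tnc -0.41 to 0.16, Postn -0.23 to 0.06 and Dcn -0.24 to 0.75.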
